A study of Mus musculus with 6 samples.

Results

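The 10 genes described here, Alb, Apoa1, Apoa2, Apoc3, Ttr, Fga, Fgb, Fgg, Ahsg and Hpx, encode proteins that the liver secretes into blood plasma. They were chosen by symbol, with no measured value in the rule, out of 41388 genes counted by RNA sequencing of mouse lung. All 10 symbols were found, each in a single row of the table. Lungs of adult mice were collected at ZT7 (7 h of light). The KO mice (Zpbp2 KO) belonged to a single deletion line that lacks the first exons and part of the promoter of Zpbp2 in every cell, on a C57BL/6J background. The WT mice were C57BL/6J animals from the same colony, and no other allele or treatment was stated for either group. Each genotype had 3 libraries (WT1, WT2 and WT3, then KO1, KO2 and KO3), described by the study as 3 mice each, with total counts between 59134950 and 71354388. The study asked whether the Zpbp2 region influences clock gene expression, and it also collected liver and ileum for other assays.

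Plasma proteins of this kind are made by hepatocytes, the main cell type of the liver, from some of the most abundant mRNAs of that organ. Albumin carries fatty acids and hormones, apolipoproteins build lipoprotein particles, transthyretin carries thyroid hormone and retinol binding protein, and the fibrinogen chains form the clot. Their transcription in hepatocytes is driven by liver-enriched factors such as C/EBP proteins. The intestinal epithelium also makes Apoa1 and Apoc3, and the choroid plexus makes Ttr, so that only part of the group is restricted to liver.

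Libraries were checked before they were compared. The pair KO2 and KO3 was more alike than any other pair of a genotype, although the study describes them as separate mice. For genes with 2000 to 19999 counts summed over a pair, the median squared difference, scaled to 1 for pure counting noise, was 1.93 for KO2 and KO3 and at least 9.32 for the other 5 pairs. Among genes with 20 to 199 counts the pairs were closer, at 1.71 for KO2 with KO3, 1.86 for WT1 with WT2 and 2.36 to 3.84 elsewhere, so that at low counts KO2 and KO3 hardly differed from the nearest WT pair in this measure. Over immunoglobulin V genes, which differ between animals with their B cell clones, it was 1.86 for KO2 and KO3 and at least 23.7 for the other pairs. For this reason KO2 and KO3 enter the comparison as 1 sample (WT n = 3, KO n = 2), and their values are shown separately only as measurements. With 3 against 2 samples, an exact permutation test cannot go below p = 0.1. Zpbp2 had 20, 15 and 7 counts in WT1 to WT3 and 1, 0 and 0 in KO1 to KO3, in the direction of the labels. Lung identity was clear from Sftpc, the type 2 cell surfactant gene, at 12330 CPM in WT, where CPM is the count per 1e6 counts of the scaled library. In bulk tissue, fewer cells of a type and less RNA per cell cannot be told apart.

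The plasma protein transcripts were rare in WT lung and far more frequent in KO2 and KO3. The 10 genes together had 482, 394 and 349 counts in WT1, WT2 and WT3, 589 in KO1, 3266 in KO2 and 3057 in KO3. In CPM the sum was 5.61 to 6.58 in WT, 9.34 in KO1, 52.7 in KO2 and 52.4 in KO3. KO2 and KO3 were above every WT library for all 10 genes, where 29.6% of all tested genes were. Of the 10, Apoc3 was not among the tested genes, and Apoa1, Ttr, Fga and Fgb were tested through their KO counts alone. KO1 was above every WT library for 7 of the 10, where 37.7% of tested genes were. For these 7 genes (Alb, Apoa1, Apoa2, Apoc3, Ttr, Fga and Fgb) both KO samples, KO1 and the mean of KO2 and KO3, were above every WT library, as for 22.4% of tested genes, and for the other 3 (Fgg, Ahsg and Hpx) KO1 was within the WT range.

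**Figure D1:**
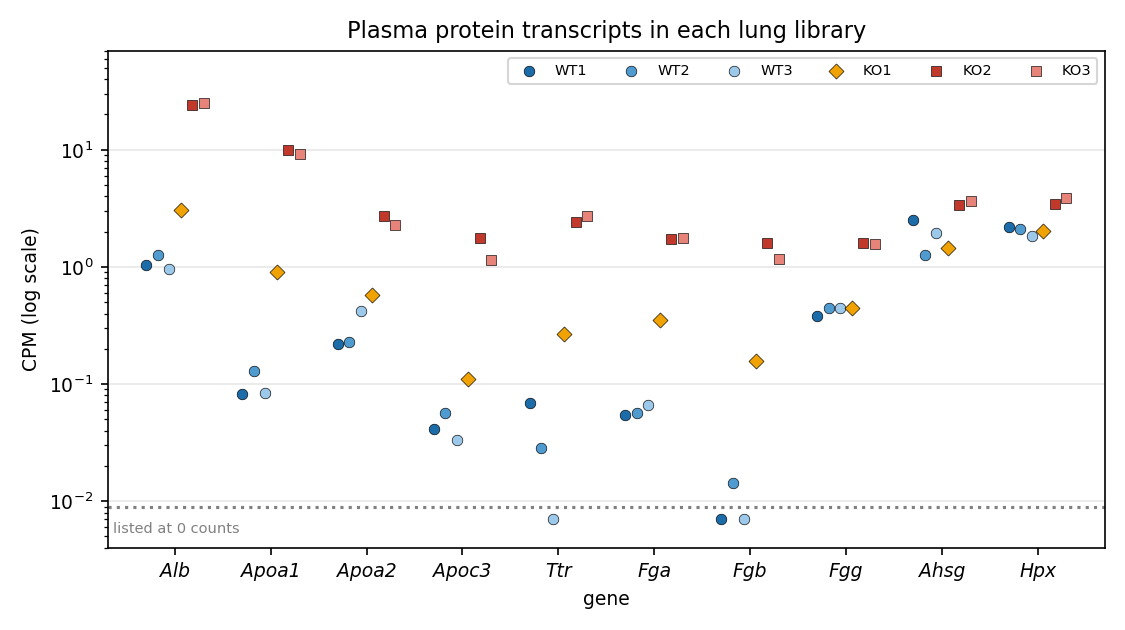
Level of each of the 10 genes (x axis) in CPM on a log scale (y axis) in each of the 6 libraries, 1 point per library, with genes listed at 0 counts drawn below the dotted line. KO2 and KO3 lie above every WT library for all 10 genes, and KO1 lies between them and WT for 7 genes but within the WT range for Fgg, Ahsg and Hpx.

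Alb, the gene of serum albumin, had the most counts of the group in each KO library. Alb (ENSMUSG00000029368), like the other 9 genes, is annotated as protein coding, and spans 90460897 to 90476602 of chromosome 5 (GRCm38, plus strand). It had 76, 89 and 58 counts in WT, 193 in KO1, 1491 in KO2 and 1457 in KO3. The groups did not overlap, and KO1 lay nearer to WT than to the other KO libraries. Mean levels were 1.09 ± 0.158 CPM for WT (SD, n = 3) and 13.8 ± 15.2 CPM for KO (SD, n = 2), so that the SD in KO exceeded the mean. Alb differed by 3.67 on the log2 scale (SE 0.84, edgeR adjusted p 0.0753), which did not pass the threshold of 0.05, within a range of 0.00197 to 0.229 over 15 alternatives. Without KO1 the log2 fold change was 4.48 (edgeR adjusted p 0.0185, with the spread taken from WT), and with KO1 as the only KO sample it was 1.49 (edgeR adjusted p 0.0840). The study had itself listed Alb among its changed genes at ZT7, so its direction is not independent evidence.

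None of the 10 genes passed the adjusted threshold in this comparison, where 2.28% of 18660 tested genes did (426 genes). The filter on low counts, at 0.145 CPM in 2 samples, kept 9 of the 10, without Apoc3. Apoa1, Ttr, Fga and Fgb were under that level in every WT library and passed through their KO counts alone, so that they had to differ to be tested, and their p values carry that limit. Before adjustment, 6 of the 10 had an edgeR p of 0.05 or less (27.3% of tested genes, 13.9% higher in KO), and these 4 were among them, so the count is no support for a change of the group. Among the 5 genes with at least 10 counts in every sample, 2 had such a p. With all 6 libraries as separate samples edgeR called 5 of the 10 (Alb, Apoa1, Apoa2, Ttr and Fga), all higher, against 18.9% of tested genes in either direction and 9.81% higher, but there KO2 and KO3 count as different animals, and Fgb was not tested. DESeq2, on the same samples as the main comparison, called the same 5 and Fgb, against 21.0% of tested genes. Both counts include genes that passed the filter through KO alone.

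Albumin and fibrinogen promoters are shown because these genes had different backgrounds in WT lung. Each line gives the 120 bases before the RefSeq start of the gene (GRCm38.p6), 5′ to 3′ on the strand of the gene, and capitals mark CCAAT or its reverse complement ATTGG, the letters of the CCAAT box. Alb lies at chr5:90460750-90460869 on the plus strand, Fgb at chr3:83049864-83049983 on the minus strand and Fgg at chr3:83007604-83007723 on the plus strand.
Alb: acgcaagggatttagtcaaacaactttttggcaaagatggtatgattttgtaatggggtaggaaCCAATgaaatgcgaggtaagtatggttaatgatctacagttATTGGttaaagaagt
Fgb: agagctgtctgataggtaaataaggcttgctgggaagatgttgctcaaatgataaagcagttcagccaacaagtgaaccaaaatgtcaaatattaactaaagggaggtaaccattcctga
Fgg: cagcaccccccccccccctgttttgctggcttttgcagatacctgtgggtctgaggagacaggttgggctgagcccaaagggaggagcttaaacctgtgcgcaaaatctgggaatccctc
The letters are in the Alb stretch and not in those of Fgb and Fgg. Of 8 genes of the group with a promoter entry, 3 (Alb, Apoa2 and Hpx) held CCAAT on either strand within 250 bases before the start, as did 33.8% of 32851 promoter windows. TATAAA was found in 1 of the 8 (Apoa2), against 12.4% of windows, also on either strand. A match of letters is a description and does not show that a factor binds there.

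Fibrinogen is assembled from the chains encoded by Fga, Fgb and Fgg, which lie side by side on chromosome 3 of GRCm38 (Fgg from 83007724 to 83015049, Fga from 83026076 to 83033627 and Fgb from 83040141 to 83049863). Fga, the alpha chain, had 4 counts in each WT library, 22 in KO1, 107 in KO2 and 103 in KO3. Fgb, the beta chain, had 0, 1 and 0 counts in WT, 10 in KO1, 100 in KO2 and 68 in KO3. Fgg, the gamma chain, had 28, 31 and 27 counts in WT, 28 in KO1, 100 in KO2 and 92 in KO3. Fga and Fgb were thus nearly absent from WT and above it in every KO library, whereas Fgg had a steady WT level that KO1 did not exceed. Fgg took 87.5%, 86.1% and 87.1% of the fibrinogen counts in WT1 to WT3, 46.7% in KO1, 32.6% in KO2 and 35.0% in KO3. The share of Fgg was smaller in each KO library than in every WT library. Fgg overlaps Gm30097 on the other strand, and whether counting used strand was not stated, so part of its counts could belong to that gene.

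The log2 fold changes were 4.13 (SE 0.76) for Fga and 1.28 (SE 0.54) for Fgg, with edgeR adjusted p values of 0.0566 and 0.207. Neither passed. Fga ranged from 0.000108 to 0.206 over 14 alternatives. For Fgb, with 1 count in all of WT, the ratio of KO2 and KO3 to WT was 284, with an exact 95% counting interval of 50.3 to 11280, and that of KO1 to WT was 32.3 (4.59 to 1400). Such intervals hold counting error alone, because reads copied in PCR are not separate molecules. The fitted log2 fold change of Fgb, 6.94 (SE 1.41, edgeR adjusted p 0.0643), depends on the prior count and is no bound.

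Among the 3 apolipoproteins of the group the ratio of KO to WT was highest for Apoa1, the main protein of HDL. Apoa1 (ENSMUSG00000032083) lies on chromosome 9 from 46228580 to 46230466, on the plus strand, 2.5 kb from Apoc3. It had 6, 9 and 5 counts in WT, 57 in KO1, 615 in KO2 and 539 in KO3. Each KO library was above all WT libraries, KO1 by far less than the others. WT averaged 0.0978 ± 0.0264 CPM (SD, n = 3) and KO 5.24 ± 6.13 CPM (SD, n = 2), and the fitted difference was 5.73 on the log2 scale (SE 1.07, edgeR adjusted p 0.0576, range 5.25e-08 to 0.205 over 14 alternatives). Apoc3, an inhibitor of lipoprotein lipase (46232933 to 46235636, minus strand), had 3, 4 and 2 counts in WT, 7 in KO1, 110 in KO2 and 67 in KO3. Too low for the main fit, it was tested alone, and an exact permutation test of its mean CPM gave the smallest possible p, 0.1. Apoa2, the second HDL protein (chromosome 1, 171225054 to 171226379, plus strand), had 16, 16 and 25 counts in WT, 36 in KO1, 168 in KO2 and 134 in KO3. Its WT level per kb was higher than that of Apoa1 and its log2 fold change smaller, 2.44 (SE 0.68, edgeR adjusted p 0.104, range 0.00956 to 0.285 over 15 alternatives).

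Ttr encodes transthyretin (chromosome 18, 20665280 to 20674321, plus strand). It had 5, 2 and 0 counts in WT, 17 in KO1, 151 in KO2 and 160 in KO3, so that every KO library was above WT. The log2 fold change was 5.36 (SE 1.28, edgeR adjusted p 0.0800, range 0.000445 to 0.247 over 14 alternatives). Markers of choroid plexus and pancreatic islet, other sources of Ttr, were compared with it (0 of 4 tested were called, against 2.28% of all tested genes, 0 at an unadjusted edgeR p of 0.05 or less, against 27.3%, and 0 by DESeq2, against 21.0%). Islet markers were at or near 0, with Ins1 at 0 counts in all 6 libraries and Ins2 and Gcg at 0 in every KO library. Of the choroid plexus markers Otx2 was at 0 in all 6, but Clic6, Kcne2, Kl and Folr1 were present in every library. The summed level of that list was 73.4 to 85.7 CPM in WT, 74.7 CPM in KO1 and at least 99.3 CPM in KO2 and KO3, most of it Clic6 (57.7 CPM in WT, 77.2 CPM in KO2 and KO3) and Kcne2, and its part in the Ttr counts was not tested.

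Ahsg (fetuin-A, an inhibitor of calcium phosphate precipitation) and Hpx (hemopexin, which binds free haem) had the highest WT levels of the group per kb of exon. Ahsg (chromosome 16, 22891277 to 22899449, plus strand) had 185, 89 and 117 counts in WT, 91 in KO1, 210 in KO2 and 213 in KO3. Hpx (chromosome 7, 105591613 to 105600137, minus strand) had 159, 149 and 111 counts in WT, 128 in KO1, 214 in KO2 and 224 in KO3. KO1 lay within the WT range for both in CPM, and only KO2 and KO3 lay above it. The log2 fold changes of 0.38 (SE 0.47) for Ahsg and 0.48 (SE 0.28) for Hpx did not pass the test (edgeR adjusted p 0.655 and 0.339). With KO1 as the only KO sample they were -0.41 and -0.01. Ahsg overlaps Gm30505 on the other strand, so its counts are uncertain in the same way as those of Fgg.

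**Figure D2:**
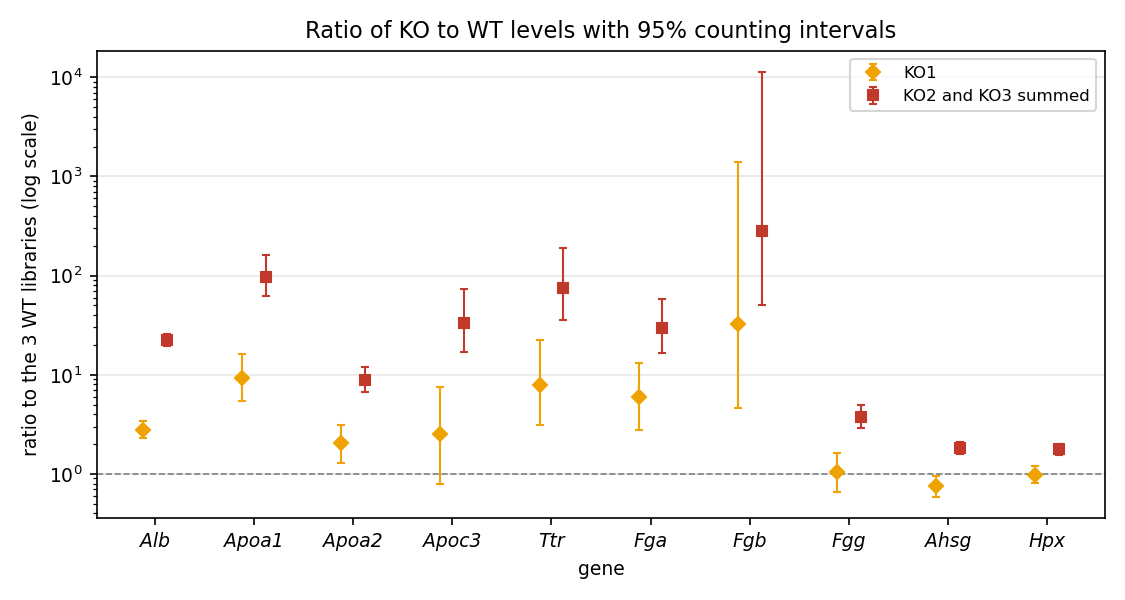
Ratio of the level in KO1 (diamonds) and in KO2 and KO3 summed (squares) to the level in the 3 WT libraries pooled, on a log scale, for each of the 10 genes, with exact 95% intervals for counting error only. Ratios for KO2 and KO3 run from 1.77 for Hpx to 284 for Fgb, and those for KO1 from 0.751 for Ahsg to 32.3 for Fgb.

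The make-up of the group differed between libraries. Ahsg and Hpx together took 71.4%, 60.4% and 65.3% of the counts of the 10 genes in WT1 to WT3, 37.2% in KO1, 13.0% in KO2 and 14.3% in KO3. Alb took 15.8%, 22.6% and 16.6% in WT, 32.8% in KO1 (exact 95% interval 29.0% to 36.7%), 45.7% in KO2 and 47.7% in KO3. Apoa1 took 1.25% to 2.28% in WT, 9.68% in KO1 (7.41% to 12.4%), 18.8% in KO2 and 17.6% in KO3. KO1 lay between WT and the other KO libraries in each of these shares. For every 100 counts of Alb there were 8.97 counts of Apoa1 over the WT libraries (exact 95% interval 5.37 to 14.2), 29.5 in KO1 (21.6 to 39.9) and 39.2 over KO2 and KO3 (36.5 to 41.9).

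**Figure D3:**
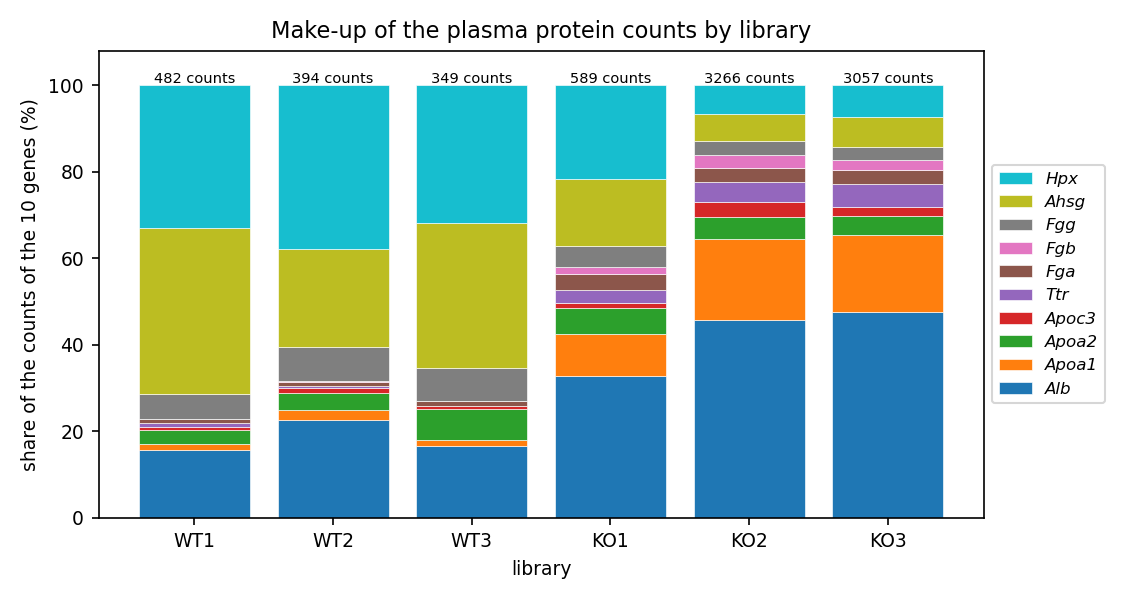
Share of each gene in the counts of the 10 genes (y axis, percent) in each library (x axis), with the number of counts behind each bar on top. Ahsg and Hpx fill 60.4% to 71.4% of the WT bars and 13.0% and 14.3% of those of KO2 and KO3, in which Alb and Apoa1 take most of the counts.

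Subtracting the WT mean gives what each KO library held above the WT level. Above WT, KO2 and KO3 had 23.4 CPM of Alb, 9.48 CPM of Apoa1, 2.56 CPM of Ttr, 2.21 CPM of Apoa2, 1.69 CPM of Fga, 1.60 CPM of Ahsg and of Hpx, 1.42 CPM of Apoc3, 1.38 CPM of Fgb and 1.17 CPM of Fgg. For Ahsg and Hpx this excess was below their WT means of 1.91 and 2.05 CPM, whereas for the other 8 genes it was above the WT mean. The excess in KO1 was 8.42% of that in KO2 and KO3 for Alb, 8.51% for Apoa1, 9.29% for Ttr, 11.1% for Fgb, 12.8% for Apoa2 and 17.2% for Fga, but 4.75% for Apoc3 and 1.66% for Fgg. For Ahsg and Hpx KO1 was below the WT mean, by -0.471 and -0.0180 CPM.

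Levels of different genes were compared per kb of exon. In WT the order was Hpx at 1.37 ± 0.116 CPM per kb (SD, n = 3), Ahsg at 0.871 ± 0.287, Apoa2 at 0.536 ± 0.208, Alb at 0.466 ± 0.0674 and Fgg at 0.203 ± 0.0175, with Apoa1, Apoc3, Ttr, Fga and Fgb at 0.0791 CPM per kb or less. The WT ranges of Ahsg and Apoa2 overlapped, as did those of Apoa2 and Alb, of Apoc3 and Ttr and of Ttr and Fga. In the mean of KO2 and KO3 the order was led by Alb at 10.5 CPM per kb, Apoa1 at 7.75 and Apoa2 at 4.66, followed by Hpx at 2.43, Ttr at 2.18, Ahsg at 1.60, Apoc3 at 1.44, Fgg at 0.762, Fga at 0.580 and Fgb at 0.364. The values of Hpx and Ttr overlapped there, and those of Ahsg and Apoc3.

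KO2 and KO3 were also compared with each other gene by gene. KO2 held 51.5% of the scaled size of this pair. The exact 95% interval of its share of the counts included that value for 8 of the 10 genes, among them Alb at 50.6% (48.8% to 52.4%). It did not for Apoc3 at 62.2% (54.6% to 69.3%) and Fgb at 59.5% (51.7% to 67.0%), for which KO2 was the higher library. These intervals hold counting error only. For genes with 20 to 199 counts, as Apoc3 and Fgb had here, the scaled median squared difference of KO2 and KO3 was 1.71, above pure counting noise. The share of all genes outside such an interval was not counted, so these results do not show a difference particular to Apoc3 or Fgb.

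Other genes of liver were examined to see how far the pattern extended. The lists held 45 further secreted liver proteins, 29 intracellular hepatocyte genes and 14 liver-enriched transcription factors with a row of counts. Of the secreted proteins 30 were tested and 0 called, against 2.28% of all tested genes, with 13 at an unadjusted edgeR p of 0.05 or less (27.3% of all tested genes), while DESeq2 called 6 (21.0%). Their median log2 fold change was 0.49, where that of all tested genes was 0.02. Of the 30, 6 (Serpina1c, Serpina3k, Apoh, Apom, Plg and Mup3) needed their KO counts to pass the filter, which favours higher KO values among the tested genes. Others, such as Apoa4 and Serpina1e with 0 counts in each WT library and more in KO2 and KO3, did not pass it. The counts of calls and the median therefore do not describe the whole list and are no support for its change. Of the 30, 25 were above 0 and 5 were not. Kng2, a kininogen, had 50, 142 and 8 counts in WT, 9 in KO1, 3 in KO2 and 5 in KO3, a log2 fold change of -3.22 (edgeR adjusted p 0.178), and Orm1 had one of -2.04 (edgeR adjusted p 0.106). KO2 and KO3 were above every WT library for 34 of the 45, a set that includes untested genes. Among all tested genes the share was 29.6%, so these shares come from unlike sets and are no support for a change of the list. Hp, Cp and Trf, the most abundant members, were at 907, 331 and 76.4 CPM in WT, and had log2 fold changes of 0.52, -0.09 and 0.24 (edgeR adjusted p 0.0900, 0.633 and 0.169). Of the hepatocyte genes 20 were tested and 0 called, with 7 at an unadjusted edgeR p of 0.05 or less (27.3% of all tested genes), 4 called by DESeq2 (21.0%) and a median of 0.49. The same limit applies, since 3 of the 20 (Cps1, Cyp3a11 and Slco1b2) passed the filter with the help of KO. Of the 20, 17 were above 0, and Sds, serine dehydratase, had a log2 fold change of -1.87 (edgeR adjusted p 0.170). Their most abundant members Mat1a, Hamp and Ass1 had log2 fold changes of 0.02, -0.06 and 0.17 (edgeR adjusted p 0.956, 0.874 and 0.451).

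Genes of these lists with at most 3 counts in every WT library were examined apart, since they had almost no level in WT lung. There were 12 such genes among the further secreted proteins, and KO2 and KO3 each had more than 3 counts for all 12, while KO1 did for 8. Choosing genes for low WT counts favours such a count. Of all 5589 genes this low in WT with a count in any library, 2.76% exceeded 3 counts in both KO2 and KO3 and 4.76% in KO1. Summed over these 12, the 3 WT libraries had 20 counts, KO1 65, KO2 1316 and KO3 1108. Most of the KO2 and KO3 sums was Apoa4, which enterocytes also make. The other 11 genes summed to 20 counts in WT, 64 in KO1, 532 in KO2 and 455 in KO3. Serpina1e, an alpha-1-antitrypsin gene, had 0 counts in each WT library, 9 in KO1, 197 in KO2 and 179 in KO3. Genes of the Serpina1 and Mup families are near-identical copies, and reads shared between copies could have been lost or split in counting. Among the hepatocyte genes 8 were this low in WT, and KO2 and KO3 exceeded 3 counts for 6 of them and KO1 for 3. Cyp3a11, a drug-metabolising cytochrome P450, had 0 counts in WT, 11 in KO1, 51 in KO2 and 54 in KO3. Cyp7a1, the rate-limiting enzyme of bile acid synthesis, had 0 counts in all 6 libraries.

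**Figure D4:**
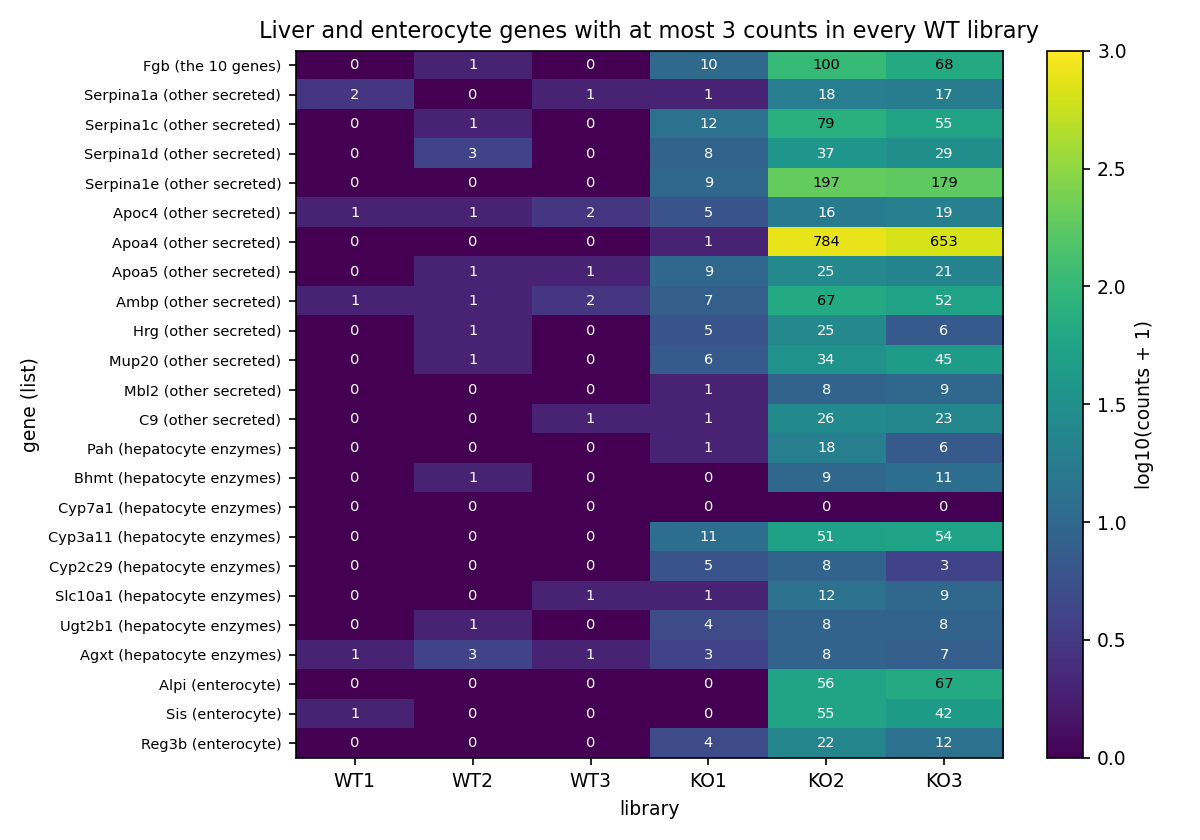
Counts (numbers in the cells; colour is log10 of the count plus 1) in each library (x axis) of those genes from the 10, the further secreted proteins, the hepatocyte genes and the enterocyte genes that had at most 3 counts in every WT library (y axis). Apoa4 has 784 and 653 counts in KO2 and KO3 and 1 in KO1, while Fgb, Serpina1c and Cyp3a11 have 10 to 12 counts in KO1.

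Liver-enriched transcription factors had fitted differences in both directions. Of 14 genes 10 were tested and 0 called, with 5 at an unadjusted edgeR p of 0.05 or less (27.3% of all tested genes), 3 called by DESeq2 (21.0%) and a median log2 fold change of 0.13, and 1 (Creb3l3) needed its KO counts to pass the filter. Onecut1 had 0 counts in all 6 libraries. Hnf4a had 2, 7 and 6 counts in WT, 5 in KO1, 26 in KO2 and 16 in KO3. Cebpa, Foxa1 and Foxa2, which lung epithelium also expresses, had log2 fold changes of 0.10, 0.15 and 0.37 (edgeR adjusted p 0.499, 0.332 and 0.0634). Prox1, also a factor of lymphatic endothelium, had 863, 588 and 472 counts in WT, 240 in KO1, 222 in KO2 and 200 in KO3, so that the KO values lay below those of WT, and a log2 fold change of -1.35 (edgeR adjusted p 0.0510). Nr0b2 and Creb3l3 had log2 fold changes of -1.53 and 1.90 (edgeR adjusted p 0.157 and 0.126).

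Genes of enterocytes differed among themselves in how KO1 compared with KO2 and KO3, and those described first were picked after their values were seen. Apoa4, a neighbour of Apoa1 and Apoc3 that enterocytes express strongly, had 0 counts in each WT library, 1 in KO1, 784 in KO2 and 653 in KO3. Alpi, intestinal alkaline phosphatase, had 0 in WT and KO1, 56 in KO2 and 67 in KO3. Sis, sucrase-isomaltase, had 1, 0 and 0 in WT, 0 in KO1, 55 in KO2 and 42 in KO3. Fabp2, the intestinal fatty acid binding protein, had 4, 4 and 8 in WT, 20 in KO1, 229 in KO2 and 223 in KO3. The level of KO1 was 12.5% of that of KO2 and KO3 for Alb (exact 95% interval 10.8% to 14.5%) and 9.43% for Apoa1 (7.10% to 12.3%), but 0.133% for Apoa4 (0.00336% to 0.742%), and the interval for Apoa4 did not overlap the others. These are counting intervals of libraries, not of genotypes. For Alpi the interval reached up to 5.81% and for Sis up to 7.40%, the latter overlapping that of Apoa1. Fabp2, at 8.45% (5.11% to 13.2%), overlapped both Alb and Apoa1, and the liver gene Serpina1e, at 4.57% (2.07% to 8.77%), lay below Alb. These levels include what WT held, 1.09 CPM for Alb and 0 CPM for Serpina1e and Apoa4, so they are not like for like. With the WT mean subtracted Alb was at 8.42%, inside the interval of Serpina1e and above that of Apoa4. Fabp6, the ileal bile acid binding protein, was highest in KO1, with 0, 1 and 40 counts in WT, 74 in KO1, 5 in KO2 and 2 in KO3. The squamous epithelium gene Krt4 was likewise high in WT3 and KO1 only, and the source of the Fabp6 counts was not tested. Vil1 had 92 counts in KO1, 96 in KO2 and 118 in KO3, and Slc5a1 had 486, 439 and 423. Among 14 enterocyte genes with counts, 10 were tested and 0 called, against 2.28% of all tested genes. Of the 10, 3 had an unadjusted edgeR p of 0.05 or less (27.3% of all tested genes) and DESeq2 called 2 (21.0%). Their median log2 fold change was 0.47, and 2 (Fabp2 and Fabp6) needed their KO counts to pass the filter. Apoa4, Alpi, Sis and Reg3b did not pass it and could not be called, so these values do not cover them. Anpep, Reg3g and Lgals4, the most abundant, had log2 fold changes of 0.15, -1.06 and 0.16 (edgeR adjusted p 0.264, 0.225 and 0.237). The summed level of the list, mostly these genes, was 206 to 224 CPM in WT, 175 CPM in KO1, 223 CPM in KO2 and 229.9 CPM in KO3. The part of intestinal RNA in the Apoa1 and Apoc3 counts was not tested.

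Genes of the acute phase response, in which hepatocytes raise fibrinogen and hemopexin, were compared because they could move with the group. Of 14 genes 8 were tested, and 1 (Lcn2, an iron-scavenging protein made by epithelium and neutrophils) was called, against 2.28% of all tested genes, with a log2 fold change of 0.69 (edgeR adjusted p 0.0446). The median was 0.32, 6 had an unadjusted edgeR p of 0.05 or less (27.3% of all tested genes) and DESeq2 called 6 (21.0%). Hp is on this list as well as on that of secreted proteins. Serpina3n had a log2 fold change of 0.09 (edgeR adjusted p 0.708), and Orm1, a classical acute phase protein of liver, had one of -2.04 (edgeR adjusted p 0.106). Saa1 and Saa2 had at most 6 counts in any library.

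Over all tested genes, those with the profile most like Alb were ranked by the root mean square difference of centred log2 levels over the 6 libraries, with 0.05 CPM added. Outside the 10 genes the nearest 5 were Mup3, Serpina1c, Cyp3a11, Zg16 and Hspa1a, with differences of 0.249, 0.297, 0.337, 0.384 and 0.387. Mup3, a major urinary protein, had 5, 11 and 3 counts in WT, 27 in KO1, 190 in KO2 and 203 in KO3. Zg16, a secreted lectin of intestinal goblet cells and pancreas, had 1, 1 and 3 in WT, 13 in KO1, 149 in KO2 and 100 in KO3. Hspa1a, a heat shock gene and no liver marker that the study also listed as changed at ZT7, had 455, 530 and 583 in WT, 1430 in KO1, 6746 in KO2 and 6524 in KO3. Of the nearest 5, Mup3, Serpina1c, Cyp3a11 and Zg16 needed their KO counts to pass the filter. Of the group itself Fgb was at 0.238, Fga at 0.313, Ttr at 0.469, Apoa2 at 0.748, Apoa1 at 0.754, Fgg at 1.19, Hpx at 1.62 and Ahsg at 1.63, and Apoc3 was not ranked. For genes near 0 counts in WT, such as Fgb, the distance depends on the 0.05 CPM added, and the counting ratio of KO2 and KO3 to WT was 284 (50.3 to 11280) for Fgb against 22.3 (19.5 to 25.7) for Alb. These distances rest on 6 libraries that hold 5 samples, and are a description.

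Markers of other cell types were summed in the same libraries, and their part in the result was not tested. Erythroid genes summed to 2575 to 5730 CPM in WT, 4148 CPM in KO1, 19520 CPM in KO2 and 20240 CPM in KO3, with 9 of 10 above every WT library in KO2 and KO3 (29.6% of tested genes) and 0 in KO1 (37.7%). Hbb-bs, Hba-a1 and Hbb-bt made up most of that sum, and 0 of the 10 were called (2 at an unadjusted edgeR p of 0.05 or less, 0 by DESeq2). Counts of calls of this and the lists after it stand against 2.28% of all tested genes by edgeR, 21.0% by DESeq2 and 27.3% before adjustment. Squamous epithelium genes, led by Krt4, Krt13 and Lor, were at 18.7 to 4814 CPM in WT, 9183 CPM in KO1 and 20.4 and 19.8 CPM in KO2 and KO3 (0 of 15 called, 0 at an unadjusted edgeR p of 0.05 or less, 0 by DESeq2). Krt4 had 68, 26 and 119209 counts in WT1 to WT3 and 232524 in KO1. Yolk sac and fetal genes summed to 237 to 482 CPM in WT, 693 CPM in KO1, 292.5 CPM in KO2 and 293.9 CPM in KO3. Of these, 0 of 6 were called (2 at an unadjusted edgeR p of 0.05 or less, 0 by DESeq2). Afp, the albumin relative of fetal liver, had 57, 49 and 39 counts in WT, 58 in KO1, 65 in KO2 and 57 in KO3. Gpc3, H19 and Igf2 led that list by level. H19 had 1394, 72 and 14760 counts in WT, 28233 in KO1, 56 in KO2 and 57 in KO3.

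Adipocyte genes (3 of 12 called, all lower: Lipe, Pck1 and Plin1, and 11 by DESeq2), led by Car3, Cfd and Pnpla2, summed to 1451 to 2156 CPM in WT and 528 to 600 CPM in KO. Cardiomyocyte genes (0 of 10 called, 7 at an unadjusted edgeR p of 0.05 or less, 5 by DESeq2), led by Myh6, Actc1 and Tnnt2, summed to 2551 to 7260 CPM in WT and 1340 to 1517 CPM in KO. Type 2 cell genes (4 of 10 called, all higher: Sftpa1, Sftpb, Sftpc and Sftpd, and 8 by DESeq2), led by Sftpc, Lyz2 and Sftpb, summed to 25980 to 27680 CPM in WT and 36310 to 38330 CPM in KO. Club and ciliated cell genes (1 of 8 called, Tppp3, higher, and 4 by DESeq2), led by Scgb1a1, Cyp2f2 and Sec14l3, summed to 29220 to 34320 CPM in WT, 38570 CPM in KO1 and 51250 and 51000 CPM in KO2 and KO3. Lung endothelial genes (0 of 8 called, 3 at an unadjusted edgeR p of 0.05 or less, 3 by DESeq2), led by Cdh5, Pecam1 and Kdr, were at 3631 to 3898 CPM in WT, 4344 CPM in KO1 and 3530 and 3525 CPM in KO2 and KO3. Macrophage genes (1 of 7 called, Mrc1, lower, and 2 by DESeq2), led by Chil3, C1qa and C1qb, were at 326 to 445 CPM in WT and 315 to 339 CPM in KO.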

How the data were processed

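Lung RNA of 3 WT and 3 KO mice was sequenced. The authors deposited raw counts per gene and library. The study's methods state that reads were trimmed and filtered for quality, aligned to GRCm38 with STAR and counted with HTSeq. The submitters' processing notes name Trimmomatic 0.36, STAR 2.5.3a, Picard 2.9.0 and HTSeq 0.6.0. The annotation release, read length and strand setting are not given in the sources used here. Total counts were 59134950 to 71354388 per library. Scaled library sizes were 58385683 to 73222805, so 3 counts correspond to 0.0410 to 0.0514 CPM.

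Genes were filtered with filterByExpr, scaled with TMM and tested with the quasi-likelihood test of edgeR 4.0.16 (R 4.3.3), two-sided, with Benjamini-Hochberg adjustment over all tested genes. KO2 and KO3 were summed as 1 sample. On simulated data for this comparison (18660 genes, 200 of them changed), 31.3%, 71.6% and 87.9% of genes changed by a log2 fold of 1, 2 and 4 were called. The same run had 16 false calls among the unchanged genes. DESeq2 1.42.0 was an alternative, with other filters, scalings, a gene length offset and left-out replicates. CPM used TMM-scaled sizes from the 6 libraries. Intervals are exact (Clopper-Pearson, scipy 1.17.1). Positions and exon lengths came from GENCODE M21 (GRCm38), which gave a length for 97.3% of genes, and promoters from RefSeq. The study describes each library as 1 mouse, and p-values measure only the spread between these samples.

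Members and lists were chosen with earlier results of these data known. Named were all 10 genes, the 3 most abundant members and every called member of each list, the 5 genes nearest to Alb in profile, Zpbp2, and liver genes with 20 or more counts. Intestinal genes, Prox1, Nr0b2, Creb3l3, Kng2, Sds and list members at or near 0 counts were named after their values were seen.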

Additional observations from a re-analysis of the deposited data

How the results depend on the processing

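Over 15 alternatives, 126 of 128 log2 fold changes of the 9 tested genes were above 0, all but Ahsg (-0.41) and Hpx (-0.01) with KO1 as the only KO sample. Apoc3, tested without the filter and without KO1, had adjusted p values of 0.0943 and 0.0527. The number of the 10 genes called, 0 in the main comparison, was 5 with the 6 libraries kept separate (18.9% of all tested genes) and 6 with DESeq2 (21.0%). It was 0 when 1 WT library, KO2 or KO3 was left out. Fits with 1 KO sample are not counted here, because their spread comes from WT alone. Alb passed with the 6 libraries kept separate (3.99, adjusted p 0.0207), with DESeq2 (3.66, 0.00197) and without KO1, and its log2 fold change was 3.58 to 4.48 with 1 replicate left out and 1.49 without KO2 and KO3. Over all genes, 426 were called, 3402 with separate libraries, 3919 with DESeq2, 909 with at least 10 counts in every sample, 4 with the gene length offset and 0 to 418 with replicates left out: 0 without any WT library (3346 to 4193 at an unadjusted p of at most 0.05), 17 without KO1 and 0 without KO2 and KO3 together (5070 unadjusted). Library size alone called 306, with 117 higher and 189 lower, against 257 higher and 169 lower. The cause of these moves was not tested. For replicate numbers 1, 2 and 3 the correlations of deviations from the group means were -0.656, 0.755 and -0.821. As KO2 and KO3 were nearly alike, these values are not separate and cannot decide whether replicate numbers pair the samples. The replicate block gave 1157 calls among 18014 tested genes and 2 of the 10 (Apoa1 and Fga). Both of these needed their KO counts to pass the filter of the main comparison. The share of Alb in KO2 and KO3, 46.6%, was 52.9% without Hpx and Ttr, and Alb had 5.17 counts for each fibrinogen count. Depth limits Apoc3, Ttr, Fga and Fgb, which had at most 5 counts in a WT library.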
